A study of Mus musculus with 66 samples.

Results

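Cultured wildtype mouse neurons that received a lentivirus with a short hairpin RNA (shRNA) against Mbd5 were compared with neurons that received a nontargeting shRNA. The comparison takes 6 Mbd5 shRNA libraries and 6 nontargeting libraries, 3 per sex in each group, out of 66 libraries in the series. A gene entered when its counts passed a filter on low values, which held for 14574 of the 30084 named genes, and these are described by function and by size of change. The neurons came from embryos at e16.5 with the genotype given as WT, and each library is labelled male or female. An shRNA is cut by the cell into a short guide RNA that directs degradation of messages it pairs with. The virus was removed at day in culture 6, RNA was taken at day 10, and the dose of each virus had been chosen by RT-qPCR to leave the target near 50% of its level. Both groups therefore carried a lentivirus, and they differed in the hairpin. The other groups used here for comparison are the 8 shRNAs against Ash1l, Chd8, Dnmt3a, Kdm6b, Kmt2c, Med13l, Setd5 and Tbr1, and a condition with no virus, each with 3 libraries per sex. The labels name no second hairpin against Mbd5, so the target and this 1 hairpin cannot be told apart. The labels describe each triplicate as wells, and where nothing says they came from separate cultures or embryos the p-values measure only the spread between these libraries, which may be technical.

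Mbd5 encodes a member of the methyl-CpG binding domain family. The protein does not bind methylated DNA through this domain, and it is known as a partner of the BAP1 deubiquitinase complex, which removes ubiquitin from histone H2A. Loss of a copy of MBD5 in people causes a neurodevelopmental disorder with intellectual disability, seizures and autistic features, and the gene is broadly expressed in the developing and adult brain. The study asks which genes change when this and other regulators are depleted, and whether the sexes differ.

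Levels are given as CPM, the field's usual unit for a gene's counts relative to the total of its library, with totals normalised across the 12 libraries. Values are listed for female replicates 1, 2 and 3 and then male replicates 1, 2 and 3. Mbd5 stood at 35.6, 57.2, 40.1, 42.0, 47.4 and 48.7 CPM with the nontargeting shRNA, and at 10.3, 21.1, 12.3, 17.1, 16.6 and 17.2 CPM with the Mbd5 shRNA. The highest Mbd5 shRNA library lay below the lowest nontargeting library. The log2 fold change was -1.53 ± 0.067 (standard error, SE), a level of 34.6% of the control, which is deeper than the planned level. Over the 6 pairs of the same sex and replicate number the log2 difference was -1.54 ± 0.18 (SD, n = 6), and a two-sided exact permutation test that flips the sign of each pair gave p = 0.03125, the smallest p that 6 pairs allow. Scaled over all 66 libraries, Mbd5 lay between 10.1 and 21.0 CPM in its own knockdown and between 29.5 and 67.6 CPM in the other 60 libraries.

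Of the libraries used only as other knockdowns, 2 had target levels that went against their labels, 1 of them only in part. Setd5 lay between 133 and 149 CPM in nontargeting males, at 44.9 CPM in male replicate 1 of the libraries labelled Kdm6b and at 141 CPM in male replicate 1 of those labelled Setd5. Kdm6b lay between 55.1 and 64.9 CPM in nontargeting males and at 23.1 CPM in that Setd5 library. In that Kdm6b library Kdm6b was at 39.9 CPM, below the nontargeting males too. Male replicates 2 and 3 labelled Kdm6b were both at 17.2 CPM. Without the groups so labelled, 3984 genes were called in the comparison with the other shRNAs described at the end.

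Total counts per library ran from 23909441 to 56017455. No pair of libraries within a group was a duplicate. Libraries of the same sex and replicate number deviated together from their group means, so the 6 pairs of sex and replicate number are kept as blocks in every test below unless stated. Pairs were compared with edgeR's quasi-likelihood F test, Benjamini-Hochberg adjustment covered all genes tested, and a gene was called where the adjusted p was under 0.05.

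**Figure D1:**
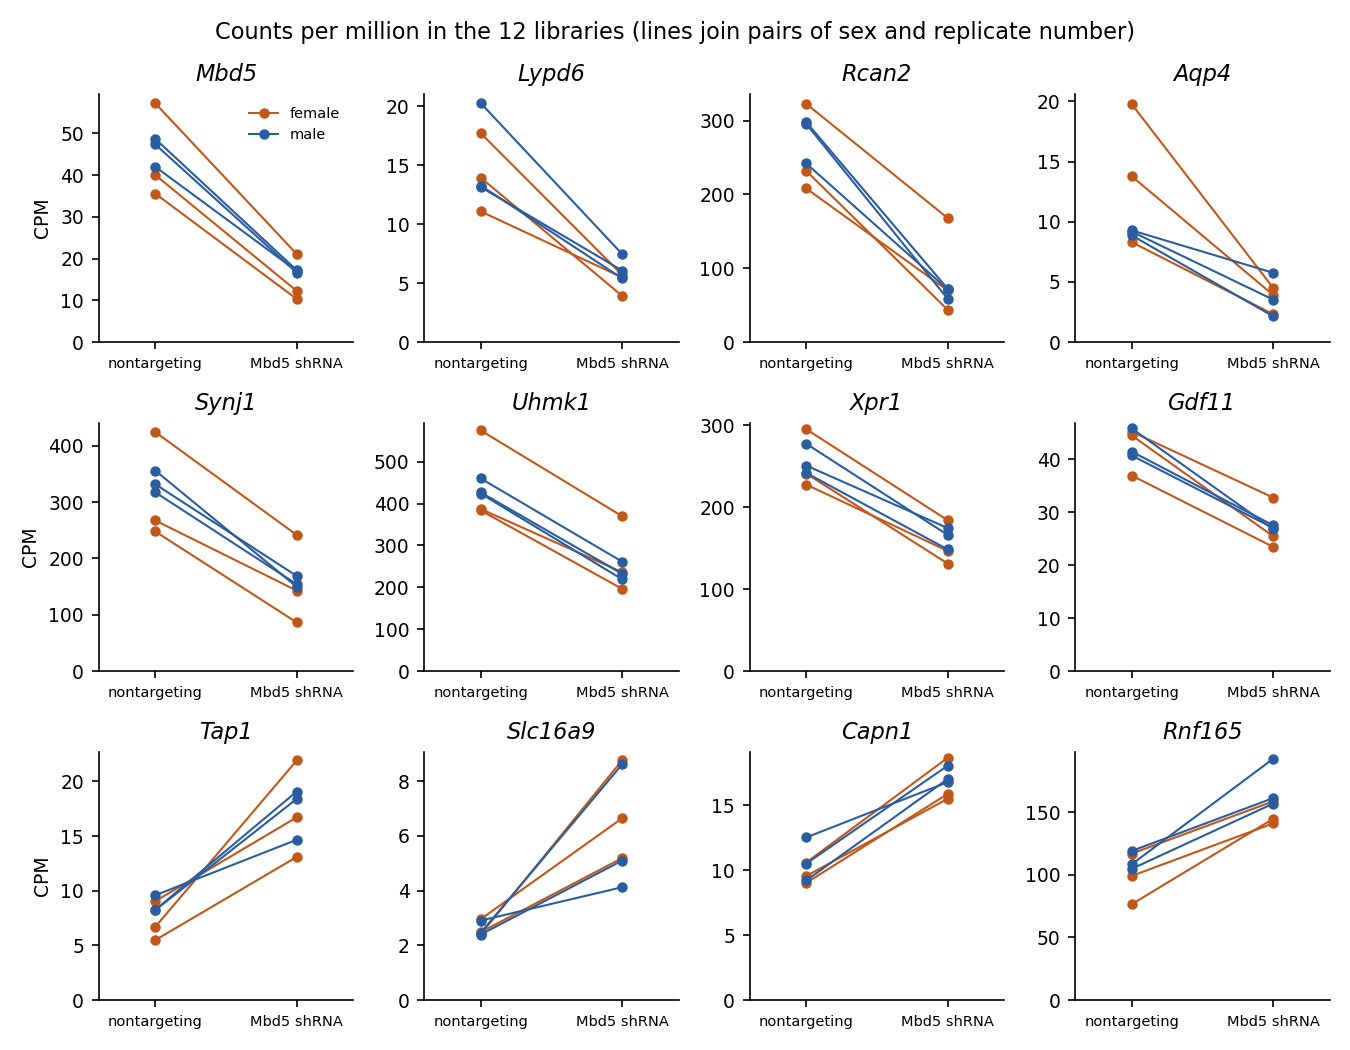
CPM (vertical axes, linear, from 0) of 12 genes in the 6 nontargeting and the 6 Mbd5 shRNA libraries, with a line for each pair of sex and replicate number, females in orange and males in blue. All lines fall for Mbd5, Lypd6, Rcan2, Aqp4, Synj1, Uhmk1, Xpr1 and Gdf11 and rise for Tap1, Slc16a9, Capn1 and Rnf165.

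Of the 14574 genes, 1629 were called, 11.2% of those tested. More genes fell than rose, with 951 lower (6.53%) and 678 higher (4.65%). Most changes were small. The median log2 fold change was -0.30 among the lower genes and 0.29 among the higher genes, and 25 lower and 17 higher genes passed a log2 fold change of 1. Of the lower genes, 803 were lower in all 6 pairs, and of the higher genes 543 were higher in all 6. The groups of 6 did not overlap in 124 lower and 77 higher genes, and in 211 of all 14574 genes tested (1.45%). The count rests on the pairing: with sex but without the replicate number in the model, 115 genes were called, 90 lower and 25 higher, and Mbd5, Rcan2, Aqp4, Lypd6, Sfrp2, Synj1, Uhmk1, Peg3, Xpr1, Arf6, Tap1 and Slc16a9 were among them. Leaving out either library of male pair 1 or of female pair 1, or both, gave between 1018 and 1042 calls.

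A short sequence was more frequent in the 3′ untranslated regions (3′ UTRs) of lower genes than in those of the other genes. A short RNA loaded on an Argonaute protein represses messages whose 3′ UTR pairs with its bases 2 to 8, the seed, and a match is known to be stronger when an A follows the paired bases. Every 7-base word was counted on the mRNA strand in the longest annotated 3′ UTR of 13491 tested genes (GENCODE vM21, mm10), and 11206 words present in at least 500 genes were ranked by the median log2 fold change of their genes. AACCCAT ranked the first, with a median of -0.09 over 1179 genes, and ACCCATA, which overlaps it by 6 bases, ranked the second. Of the AACCCAT genes, 256 were lower (21.7%), against a median of 10.4% over the words ranked and 6.77% of all genes with a 3′ UTR. The third and the fourth word by rank also overlap it by 6 bases. These words were found in the fold changes they are described with, so the ranks are a description and were not tested.

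The sites of 10 genes are shown to let the shared letters be seen, with the 7-base word in capitals and 11 bases on each side, 5′ to 3′ on the mRNA strand (mm10). The first 5 continue with an A and so hold the 8-base word AACCCATA, and the others do not.
Peg3 (chr7:6707403-6707431, minus strand): gagcctaaaccAACCCATaatgtctataa
Gdf11 (chr10:128884306-128884334, minus strand): tggaggtttctAACCCATaatcaccctga
Tmem19 (chr10:115342085-115342113, minus strand): ttaaatgacttAACCCATacacatggaag
Sfrp2 (chr3:83773604-83773632, plus strand): gaggccttggaAACCCATagctgttttca
Adamts17 (chr7:67152221-67152249, plus strand): cccctgtgttaAACCCATactgtcactta
Arf6 (chr12:69373352-69373380, plus strand): gagaaatccaaAACCCATtcctaggatta
Hipk2 (chr6:38697816-38697844, minus strand): acacagctcacAACCCATtctgcaccaaa
Synj1 (chr16:90938687-90938715, minus strand): ctgcccctggaAACCCATttagagttcag
Syt11 (chr3:88745826-88745854, minus strand): ccctgtcctttAACCCATggaatgtaaat
Morf4l2 (chrX:136733216-136733244, minus strand): atatacctggaAACCCATgcatttgtgct

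The target message holds the same word, at 1 position that its annotated transcripts share. How often messages of its length hold a given 7-base word was not counted. Each of the 3 annotated Mbd5 transcripts contains AACCCAT once, in the coding region and not in the 3′ UTR, in exon 4 of transcript Mbd5-201.
Mbd5 (chr2:49257335-49257363, plus strand): aggatatccctAACCCATtaattgctgga
The RNA seed that pairs with the word is AUGGGUU, and 0 of 1738 mature mouse miRNAs in the RefSeq table carry it at bases 2 to 8. How many other 7-base words pair with no miRNA seed was not counted, so this 0 does not set the word apart. The sequence of the Mbd5 hairpin is not given in the sources used here, and its part in the fall of genes with the word was not tested.

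The fall was ordered by the length of the match. The word was picked by its low median in these same libraries, so the values by class describe it and test nothing. Among 253 genes with the 8-base word the median log2 fold change was -0.15 and 86 were lower (34.0%). Among 926 genes with the 7-base word alone the median was -0.07 and 170 were lower (18.4%). Among 2448 genes with the 6-base word ACCCAT but not AACCCAT the median was -0.03 and 261 were lower (10.7%). This class takes in genes that hold ACCCATA, the word ranked the second, but lack AACCCAT. Their share was not counted, so the class is not one of 6-base matches alone. Among 9864 genes with none of these words the median was 0.02 and 397 were lower (4.02%). The shares that were higher ran the other way, 2.77% with the 8-base word and 5.30% with none. Genes with 2 or more 7-base words, 124 of them, had a median of -0.14.

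The order was the same in every pair. The word had been picked by the pooled fold changes of these same 6 pairs, so the likeness of the pairs is not a replication. The median of the 8-base genes was -0.20, -0.16, -0.11, -0.19, -0.17 and -0.10 in the 6 pairs, and that of genes without a word lay between -0.00385 and 0.0276. The difference between genes with the 7-base or 8-base word and genes with none was -0.10 ± 0.027 (SD, n = 6 pairs). Longer 3′ UTRs hold more words of any kind, and lower genes had a median 3′ UTR of 2214.5 bases against 1315.0 for higher genes and 1148.0 for genes not called. Within each of 4 bins of nearly equal gene number by 3′ UTR length, between 18.2% and 23.8% of genes with the word were lower, against 1.67% to 7.13% of genes with none.

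The word marks a minority of the lower genes. It was found in 256 of the 914 lower genes with a 3′ UTR (28.0%), in 27 of 649 higher genes (4.16%) and in 7.51% of genes not called. It was denser among the strongest calls, with 29 of the 50 lower genes with the smallest p holding it and 6 holding none of the 3 words, whereas 43 of the 50 strongest higher genes held none. When only genes with none of the words, or without an annotated 3′ UTR, were tested, 862 of 10947 were called. Of these, 385 were lower and 477 higher. The words were picked by low fold changes in these same libraries, so leaving out their genes favours the removal of lower calls. This balance is therefore a description and tests nothing. Some genes with the 8-base word rose, Clock and Slc16a3 among them. Clock, whose protein drives the circadian transcription loop, stood at 50.1 to 62.5 CPM with the nontargeting shRNA and 63.5 to 82.4 CPM with the Mbd5 shRNA (log2 fold change 0.35 ± 0.06), and the groups did not overlap. Its site was printed with an A after the word.
Clock (chr5:76215536-76215564, minus strand): tgaggggaaaaAACCCATagtgccttgat

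**Figure D2:**
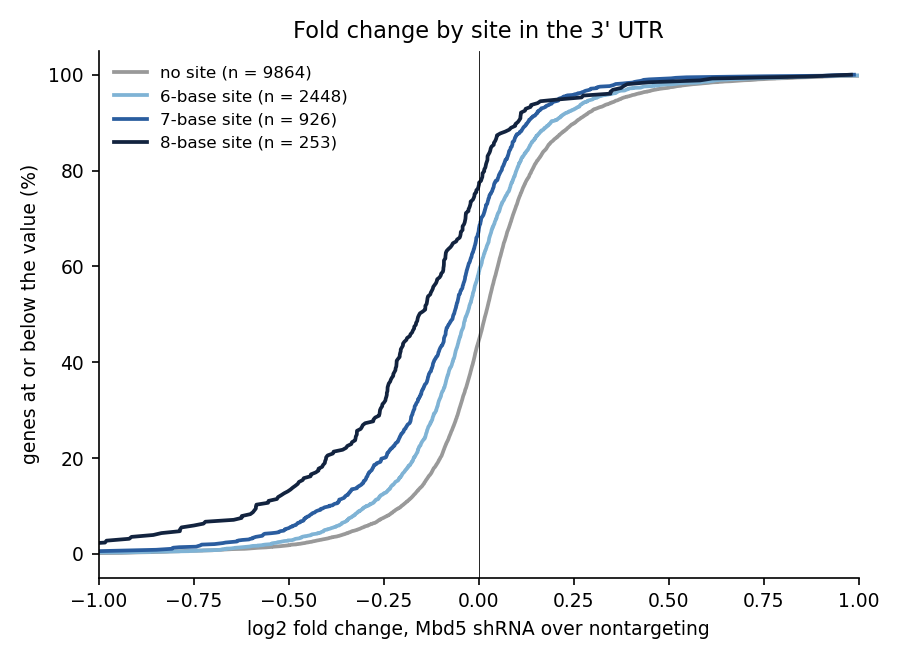
Cumulative share of genes (vertical axis, percent) at or below each log2 fold change of Mbd5 shRNA over nontargeting (horizontal axis), for genes whose 3′ UTR holds the 8-base word, the 7-base word without the 8-base word, the 6-base word without the 7-base word, or none. The curves lie in order of match length, with 8-base genes farthest left and genes with none farthest right.

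The same classes can be read in the other groups, each set against the same 6 nontargeting libraries, so these values share their controls. The median of the 8-base genes was -0.09 with the Med13l shRNA, -0.06 with Tbr1, -0.04 with Chd8, -0.03 with Setd5, -0.02 with Kmt2c, -0.00485 with Dnmt3a, 0.02 with Ash1l, 0.02 with Kdm6b and 0.01 without virus, against -0.15 with the Mbd5 shRNA. The medians of the 8-base, 7-base and 6-base genes and of genes with none were also in order of match length with Tbr1 (-0.06, -0.04, -0.03 and 0.02) and with Chd8 (-0.04, -0.03, -0.00543 and 0.00901). With Med13l the 6-base genes had a median of -0.07 and the 7-base genes of -0.06, out of that order, against 0.03 for genes with none. Against the mean of the other 8 shRNAs, a comparison without the nontargeting libraries, the Mbd5 medians were -0.10 for 8-base genes, -0.04 for 7-base genes, -0.00576 for 6-base genes and 0.01 for genes with none.

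**Figure D3:**
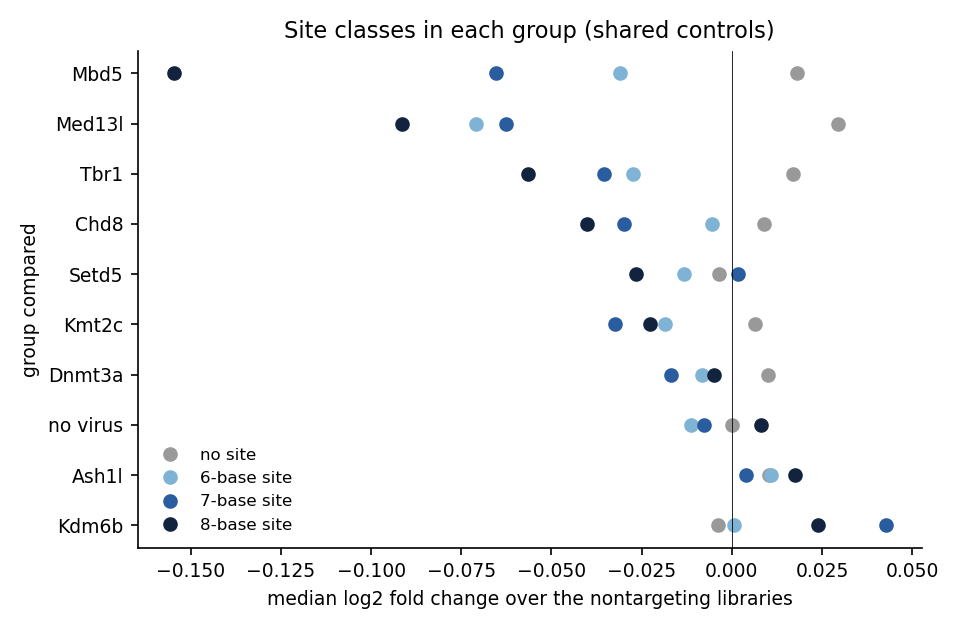
Median log2 fold change over the nontargeting libraries (horizontal axis) of genes in the 4 word classes for each shRNA group and for no virus (rows, ordered by the 8-base class). The Mbd5 row reaches farthest left, at -0.15 for the 8-base class. All rows share the same 6 control libraries.

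Rcan2, a regulator of the phosphatase calcineurin, had the largest fall among the genes named by the rule on size. It stood at 232, 323, 208, 298, 242 and 296 CPM with the nontargeting shRNA and at 43.8, 168, 70.0, 72.2, 71.5 and 58.7 CPM with the Mbd5 shRNA. The log2 fold change was -1.83 ± 0.22 (adjusted p = 0.00713). The groups did not overlap, and the female replicate 2 library of the Mbd5 shRNA lay well above the other 5. Rcan2 was also low in other knockdowns, with a log2 fold change of -1.30 with the Tbr1 shRNA and -1.05 with the Chd8 shRNA against the shared controls, and was -1.48 ± 0.16 against the mean of the other 8 shRNAs.

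Aqp4, the water channel of astrocyte membranes, fell from 19.8, 8.31, 13.8, 8.87, 9.19 and 9.29 CPM to 4.51, 2.32, 3.92, 2.15, 3.54 and 5.76 CPM. All 6 Mbd5 shRNA libraries lay below all nontargeting libraries (log2 fold change -1.63 ± 0.17, adjusted p = 4.53e-05). Its 3′ UTR holds the 8-base word. Aqp4 was also low in other knockdowns, with a log2 fold change of -1.17 with the Med13l shRNA, -1.11 with Kmt2c and -1.02 with Chd8 against the shared controls. Of the other 10 astrocyte markers tested, none was called.

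Synj1 encodes synaptojanin, a lipid phosphatase of synaptic vesicle recycling. It fell from 248, 424, 267, 332, 318 and 356 CPM to 86.5, 242, 143, 169, 154 and 150 CPM, and the highest Mbd5 shRNA library lay just below the lowest nontargeting library (log2 fold change -1.08 ± 0.08, adjusted p = 2.26e-05). In the pair of female replicate 2 both libraries were the highest of their group. With the Chd8 shRNA Synj1 was at -0.88 and with Med13l at -0.43 over the shared controls.

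Of the other large decreases, the secreted Wnt antagonist Sfrp2 (-1.22 ± 0.15) and the secreted protease Adamts17 (-1.06 ± 0.11) hold the 8-base word. Tril, an accessory protein of toll-like receptor signalling (-1.32 ± 0.21), holds the 7-base word. Myh8 and Mybpc1, components of skeletal muscle fibres, fell by 1.45 and 1.09 on the log2 scale. Myh8 holds the 6-base word and Mybpc1 none. The mitochondrial glutamate carrier Slc25a18 (-1.25 ± 0.24), the plasma selenium carrier Selenop (-1.04 ± 0.13) and the guanine nucleotide exchange factor Dock5 (-1.0 ± 0.24) fell as well, and Dock5 lost its call when male pair 1 was left out. All of these were lower in 6 of 6 pairs.

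Some genes with smaller decreases varied little between pairs and had small p-values. Uhmk1, a kinase that acts on splicing factors and local RNA, fell from 384, 575, 387, 424, 427 and 460 CPM to 196, 370, 236, 219, 232 and 261 CPM (log2 fold change -0.83 ± 0.05, adjusted p = 7.96e-09). Uhmk1 differed widely between knockdowns, with a log2 fold change of -1.16 with the Chd8 shRNA and 0.98 with the Ash1l shRNA against the shared controls. The phosphate exporter Xpr1 fell from 228 to 295 CPM over the nontargeting libraries to 131 to 184 CPM (-0.69 ± 0.05). Arf6, a small GTPase of endosome and membrane traffic, fell from 91.5 to 136 CPM to 53 to 74.1 CPM (-0.73 ± 0.05). The groups did not overlap for these 3 genes.

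Peg3, an imprinted zinc finger gene expressed from the paternal copy, stood at 169 to 287 CPM and fell to 110 to 180 CPM (-0.79 ± 0.05, adjusted p = 9.43e-09). It was lower in 6 of 6 pairs although the groups overlapped, because the libraries of female replicate 3 were low and those of female replicate 2 high in both groups. Its 3′ UTR holds the 7-base word at 3 places, and 1 of them is the 8-base word. With the Chd8 shRNA Peg3 was at -0.68 and with Tbr1 at -0.43 over the shared controls. The zinc finger gene Zfp704 (-0.68 ± 0.05) and the nuclear kinase Hipk2 (-0.73 ± 0.06) fell too. Against the mean of the other 8 shRNAs Hipk2 was at -0.17 (adjusted p = 0.43), which did not pass the threshold.

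Hadha, the alpha subunit of the enzyme complex of mitochondrial fatty acid oxidation, had the second smallest p against the other shRNAs, after Mbd5. It stood at 55.3, 58.0, 55.1, 49.0, 54.4 and 56.4 CPM with the nontargeting shRNA and at 23.6, 45.5, 28.2, 29.5, 28.6 and 22.7 CPM with the Mbd5 shRNA. The log2 fold change was -0.91 ± 0.12 (adjusted p = 0.00137) and -1.07 against the other 8 (adjusted p = 1.35e-16). Hadha holds none of the words. Tmem19 (-0.72 ± 0.07) and the histone acetyltransferase subunit gene Morf4l2 (-0.52 ± 0.05) follow by that p and hold the 8-base and the 7-base word. The regulatory subunit gene Pik3r3 of phosphoinositide 3-kinase rose (0.51 ± 0.07).

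Lypd6 lies on chromosome 2 as Mbd5 does, 746.7 kb beyond its end. It encodes a membrane-anchored protein that modulates nicotinic receptors and Wnt signalling. Lypd6 fell from 17.7, 11.1, 14, 13.3, 20.3 and 13.2 CPM to 5.70, 5.50, 3.92, 5.41, 7.47 and 6.07 CPM (log2 fold change -1.38 ± 0.11, adjusted p = 1.66e-07). The groups did not overlap, and the level of 38.3% of the control was close to that of Mbd5 itself. Scaled over all 66 libraries, Lypd6 lay between 3.95 and 7.45 CPM with the Mbd5 shRNA, between 6.88 and 32.6 CPM with the other 8 shRNAs and between 11 and 22.9 CPM without virus. The genes in between were not called. The log2 fold change was 0.07 for Epc2, 0.04 for the kinesin gene Kif5c and -0.13 for Lypd6b, the neighbour and relative of Lypd6. The 3′ UTRs of Lypd6, Kif5c and Lypd6b hold the 6-base word. Orc4, which overlaps the Mbd5 span, was at -0.09 and Acvr2a at -0.03. Of the 8 genes tested within 1500 kb, Mbd5 and Lypd6 were the ones called.

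Clustered protocadherins are cell adhesion proteins that give each neuron a surface identity, and they are encoded as alpha, beta and gamma arrays that lie side by side. The alpha array was lower nearly as a whole. Of 12 alpha genes tested, 11 were called lower. Pcdha8 had a negative fold change too but was not called (-0.78 ± 0.35, adjusted p = 0.165). The median was -0.87 with a range from -1.24 to -0.67, against 0.0016 over all genes. This gene group was listed after its values were seen. Pcdhac2, the alpha gene nearest the shared exons, stood at 55.3, 85.3, 74.3, 75, 77.1 and 81.4 CPM and fell to 21.5, 61.3, 38.6, 39.1, 35.5 and 44.3 CPM (-0.94 ± 0.09, adjusted p = 6.06e-05). Every pair was lower, and the groups overlapped through female replicate 2 with the Mbd5 shRNA. Without the replicate number in the model 3 alpha genes were called.

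The beta and gamma arrays did not fall with the alpha array. Of 22 beta genes, 1 was lower (Pcdhb9, -0.23 ± 0.07) and none was higher, with a median of 0.08. Of 20 gamma genes, 3 rose, and all 20 had positive fold changes with a median of 0.18. Pcdhgc4, the gamma gene needed for the survival of cortical interneurons, stood at 76.3, 60.5, 66.1, 61.8, 76.0 and 75.2 CPM and rose to 108, 68.9, 92.6, 95.0, 104 and 109 CPM (0.47 ± 0.05, adjusted p = 1.98e-05). Pcdhgc5 (0.32 ± 0.07) and Pcdhga2 (0.25 ± 0.07) rose with it. Against the other 8 shRNAs the medians were -0.70 for alpha, 0.19 for beta and 0.20 for gamma genes. With the shared controls the alpha median was -0.47 with the Med13l shRNA and -0.43 with Tbr1, and the gamma median was 0.27 with Chd8, 0.24 with Ash1l, 0.12 with Setd5, 0.11 without virus, -0.15 with Kmt2c and -0.97 with Med13l, so a positive gamma median was shared with other groups. The genes of the alpha array end in the same constant exons, and those of the gamma array in another such set. How reads in these exons were assigned is not stated. The values of single alpha or gamma members are therefore uncertain, and the members are not independent.

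**Figure D4:**
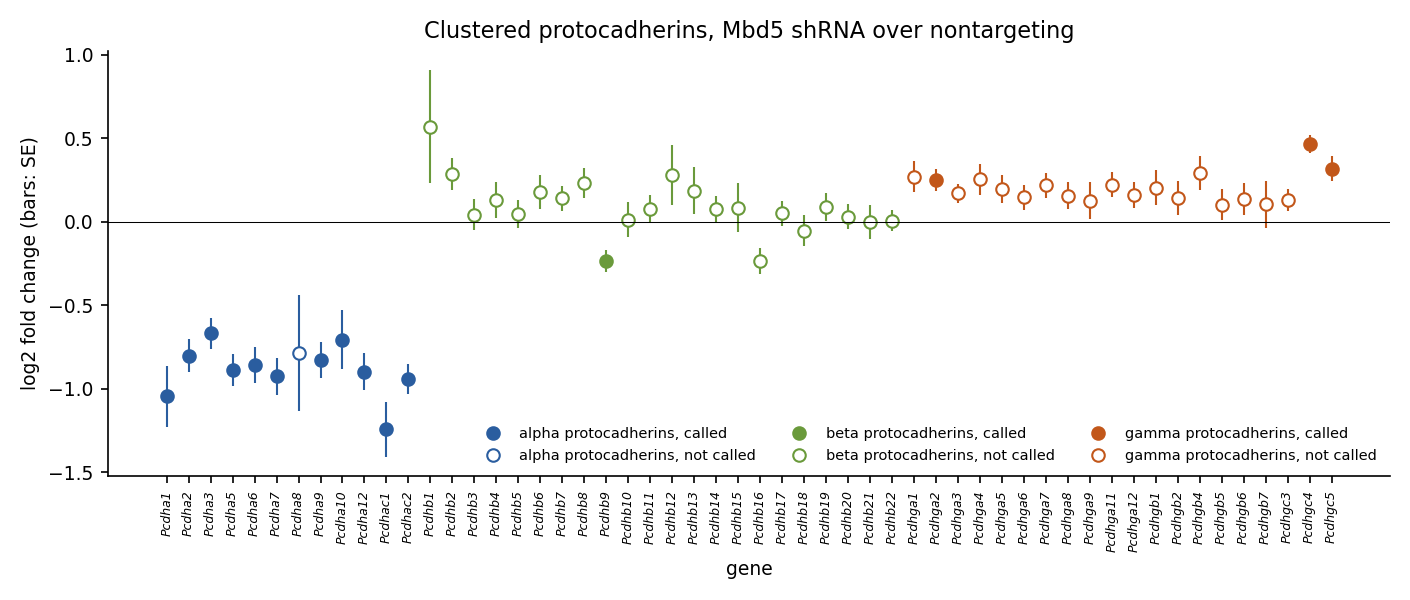
Log2 fold change of Mbd5 shRNA over nontargeting with its standard error (vertical axis) for each tested gene of the alpha, beta and gamma protocadherin arrays (horizontal axis), with filled symbols for genes called at an adjusted p under 0.05. All 12 alpha genes lie below 0, and all 20 gamma genes lie above 0.

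Slc16a9, a member of the monocarboxylate transporter family, had the largest rise among the genes named by the rule on size. It stood at 2.41, 2.49, 2.96, 2.40, 2.91 and 2.46 CPM with the nontargeting shRNA and at 8.77, 5.19, 6.65, 5.10, 4.13 and 8.62 CPM with the Mbd5 shRNA. The log2 fold change was 1.25 ± 0.16 (adjusted p = 6.85e-05), and the groups did not overlap. Among the other knockdowns, with the shared controls, Slc16a9 was at 1.35 with the Tbr1 shRNA.

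Tap1 and Psmb9, which lie head to head in the major histocompatibility complex on chromosome 17, rose together. Tap1 is a subunit of the transporter that brings peptides to MHC class I, and Psmb9 is a subunit of the immunoproteasome that makes such peptides. Tap1 stood at 6.70, 5.49, 9.05, 8.26, 8.24 and 9.59 CPM and rose to 21.9, 13.1, 16.7, 19.1, 18.4 and 14.7 CPM (1.13 ± 0.11, adjusted p = 1.09e-05), with no overlap. Psmb9 rose from 1.60, 0.148, 0.942, 0.685, 0.977 and 0.940 CPM to 3.19, 0.428, 1.71, 1.97, 1.41 and 2.16 CPM (1.06 ± 0.23). It was higher in 6 of 6 pairs, and both libraries of female replicate 2 were the lowest of their group. H2-Ab1, a chain of MHC class II 66 kb from Tap1, rose too (0.91 ± 0.21, adjusted p = 0.0217).

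The rise did not extend over the pathway. Of 19 genes of class I antigen processing, a list drawn up after values were seen, Tap1 and Psmb9 were called, and the median was 0.08. Psmb8 (0.36 ± 0.35) and Tap2 (0.41 ± 0.41), the partners of Psmb9 and Tap1 next to them, did not pass the test and were counted at under 1 CPM. Of 5 class II genes H2-Ab1 and Cd74 rose, the latter by 0.77 ± 0.23. Among 12 interferon-stimulated genes tested, 0 were called. Tap1 was at 0.89 with the Kmt2c shRNA, 0.42 with Med13l, -1.03 with Chd8 and -0.69 with Ash1l over the shared controls, and at 1.31 in Mbd5 against the mean of the other 8.

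The starts of Tap1 and Psmb9 lie 226 bases apart on opposite strands, and their promoter windows of 300 bases overlap by 275 bases. The window of Tap1 (RefSeq, GRCm38.p6, chr17:34187306-34187605, plus strand) is printed because it overlaps the window of Psmb9 and both genes rose, with the CCAAT box, searched on both strands as CCAAT or ATTGG, in capitals. It has 1 match, and 38.2% of 11409 promoter windows of tested genes hold at least 1.
Tap1 promoter: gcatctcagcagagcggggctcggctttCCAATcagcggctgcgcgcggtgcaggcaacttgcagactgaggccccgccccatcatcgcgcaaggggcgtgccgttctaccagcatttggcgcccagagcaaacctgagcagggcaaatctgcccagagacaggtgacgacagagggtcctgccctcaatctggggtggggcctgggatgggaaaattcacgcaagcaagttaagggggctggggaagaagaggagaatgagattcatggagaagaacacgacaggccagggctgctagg

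Of the other large increases, Shisa8, an auxiliary subunit of AMPA receptors (1.01 ± 0.19), the secreted angiopoietin-like Angptl2 (0.98 ± 0.22), the polarity protein gene Crb3 (0.94 ± 0.22), the nuclear envelope protein gene Nrm (0.92 ± 0.15), the colony-stimulating factor receptor ligand Il34 (0.91 ± 0.19), the tensin gene Tns2 (0.89 ± 0.22), the kinase-like gene Plk5 (0.88 ± 0.13) and the receptor tyrosine kinase gene Epha2 (1.22 ± 0.28) were higher in 6 of 6 pairs. All 8 were low genes, with means under 10 CPM in both groups. The groups did not overlap for Nrm, Angptl2 and Tns2.

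Genes with tight increases included Capn1, the protease calpain 1, which rose from 9.03, 10.6, 9.55, 9.21, 10.5 and 12.5 CPM to 15.9, 18.7, 15.5, 17.0, 18.1 and 16.8 CPM (0.73 ± 0.08). Rnf165, a ubiquitin ligase of BMP-dependent motor axon growth, rose from 76.5 to 119 CPM to 141 to 192 CPM (0.62 ± 0.06). The groups did not overlap for either gene, nor for the zinc finger gene Zmat4 (0.72 ± 0.08) or the sodium channel beta subunit gene Scn2b (0.46 ± 0.06). The choline transporter-like gene Slc44a5 rose by 0.86 ± 0.09 in 6 of 6 pairs with overlapping groups.

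The lists below are pathways and gene families. Each count is to be read against the background of 6.53% lower and 4.65% higher genes, and against a median log2 fold change of 0.0016 over all genes. Many of these genes are more abundant than the median gene, and a call is easier to reach with more counts, so a share above the background says nothing particular about a list.

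In the family of Mbd5, methyl-CpG binding proteins and DNA methylation enzymes, 4 of 22 genes were lower and 1 was higher, with Mbd5 itself among the lower. Zbtb4, a zinc finger reader of methylated DNA, fell by 0.38 on the log2 scale, and Tet3 and Tet1, which oxidise methylcytosine, fell by 0.18 and 0.27. Dnmt1, the maintenance methyltransferase, rose by 0.17 ± 0.05. Mbd6, the closest relative of Mbd5 (0.00579 ± 0.085), was not called. Zbtb4 and Tet3 hold the 7-base word. Dnmt1 and Tet3 lost their calls in some settings that left out a pair.

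Of the BAP1 complex and the enzymes of H2A ubiquitin, 6 of 18 genes were lower and 0 were higher, and 1 of the 6 was Mbd5. Bap1, the deubiquitinase itself, fell by 0.14 on the log2 scale, its partners Asxl1 and Asxl3 by 0.24 and 0.21, the ubiquitin ligase Rnf2 by 0.20 and the deubiquitinase Usp22 by 0.17. These differences are small. The level of Asxl1 was 46.9 to 70.3 CPM and then 37.5 to 60.1 CPM, so the groups overlapped and the call rested on all 6 pairs moving the same way. Rnf2 and Asxl3 lost their calls in some settings that left out a pair.

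Among chromatin remodellers 4 of 34 genes were lower and 3 higher. The helicase genes Chd9 (-0.43 ± 0.05) and Chd6 (-0.23 ± 0.05) fell, and Chd4 (0.20 ± 0.05), Smarca4 (0.15 ± 0.04) and Smarcb1 (0.15 ± 0.05) rose. These 3 higher calls were lost in 6, 9 and 15 of the 18 settings that left out 1 library or 1 pair, in that order. With the block, leaving out either library of a pair or both is nearly the same omission. Counts out of 18, here and below, thus rest on nearly 6 distinct omissions, 1 for each pair. Among writers and erasers of histone lysine methylation 3 of 47 were lower and 5 higher. The demethylases Kdm5a (-0.34 ± 0.05), with 45.1 to 54.5 CPM against 34.7 to 43.9 CPM and no overlap, and Phf8 (-0.48 ± 0.10) fell. The methyltransferase gene Kmt5a (0.37 ± 0.06, no overlap) and the demethylase gene Kdm6b (0.24 ± 0.06) rose. Phf8 and Kdm6b each lost the call in 3 of those settings. Kdm6b is a target of another shRNA in the series, and no other target besides Mbd5 was called. Of 26 genes tested from related neurodevelopmental syndromes 3 were lower and 1 higher, the neurexin-family adhesion gene Cntnap2 (-0.40 ± 0.05) and the ubiquitin ligase gene Ube3a (-0.35 ± 0.07) with the largest decreases.

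Of 18 receptors for the inhibitory transmitters GABA and glycine, 7 were lower and 0 higher, with a median of -0.13. Among them, Gabrg3 fell by 0.26, Glra2 by 0.22, Gabrb1 by 0.20, Gabrb2 by 0.15 and Gabra5 by 0.14 on the log2 scale. The count is not firm: it was 3 when any single male pair was left out, 4 without female pair 2, and 1 without the replicate number in the model. Gabrg3 holds the 8-base word.

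Among 30 glutamate receptor genes 3 were lower and 4 higher. The AMPA receptor subunit Gria4 (-0.23 ± 0.05), the NMDA receptor subunit Grin3a (-0.24 ± 0.05) and the AMPA auxiliary subunit Shisa6 (-0.62 ± 0.07) fell, and Grin2d (0.30 ± 0.06), Grm4 (0.36 ± 0.08), Grik5 (0.17 ± 0.05) and Cacng8 (0.27 ± 0.08) rose. The auxiliary subunit genes Shisa6 and Shisa8 moved in opposite directions.

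Of 30 genes of synaptic vesicle release 6 were lower and 2 higher. Syt11, a synaptotagmin without calcium binding, fell from a median of 639 CPM to one of 440 CPM (-0.50 ± 0.05, adjusted p = 2.68e-06) with no overlap. The fusion regulator Cplx2 (-0.44 ± 0.06) and the SNARE gene Snap25 (-0.22 ± 0.04) fell, while the fast calcium sensor Syt2 rose (0.70 ± 0.13). Syt11 and Cplx2 hold the 7-base word. Among 30 synaptic adhesion and scaffold genes 4 were lower, with Lrrtm2 the most certain (-0.45 ± 0.06, 60.5 to 72.8 CPM against 43.3 to 59.7 CPM), and Shank1 (0.23 ± 0.05) and Camk2b (0.16 ± 0.05) rose. Camk2b lost its call in 10 of the 18 settings that left out 1 library or 1 pair.

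Of 43 potassium channel genes 6 were lower and 5 higher. Kcna2, an axonal delayed rectifier, fell from 61.3, 123, 72.2, 94.2, 98.0 and 115 CPM to 42.0, 89.0, 54.5, 60.8, 64.1 and 75.6 CPM (-0.55 ± 0.05, adjusted p = 8.4e-07). It was lower in each pair, while the libraries of female replicate 2 were the highest in both groups. Kcnd3 (-0.32 ± 0.05) and Kcns2 (-0.44 ± 0.07) fell and the sodium-activated channel gene Kcnt1 rose (0.36 ± 0.06). Of 27 calcium, sodium and HCN channel genes 4 were lower and 6 higher. The pacemaker channel genes Hcn3 (-0.48 ± 0.07) and Hcn2 (-0.55 ± 0.09) fell, and the calcium channel genes Cacna1c (0.29 ± 0.05), Cacna1g (0.30 ± 0.06) and Cacnb3 (0.31 ± 0.05) rose.

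Of 39 axon guidance genes 7 were lower and 5 higher. The secreted semaphorin Sema3c (-0.54 ± 0.06) and its receptors Nrp2 (-0.32 ± 0.05) and Nrp1 (-0.24 ± 0.06) fell, as did Sema6d (-0.32 ± 0.05), the netrin gene Ntn1 (-0.30 ± 0.08) and its receptor Unc5c (-0.72 ± 0.11). Sema3f (0.46 ± 0.09) and Plxna4 (0.23 ± 0.05) rose. Nrp2 lay between 139 and 168 CPM with the nontargeting shRNA and between 109 and 128 CPM with the Mbd5 shRNA.

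In TGF-beta, activin and BMP signalling 4 of 45 genes tested were lower and 1 higher. Gdf11, a secreted ligand that limits neurogenesis, fell from 44.5, 45.2, 36.9, 41.4, 40.7 and 45.8 CPM to 25.5, 32.8, 23.5, 27.5, 27.0 and 26.8 CPM (-0.64 ± 0.06, adjusted p = 1.51e-06), and the groups did not overlap. The follistatin-like gene Fstl5 (-0.40 ± 0.06), the receptor gene Bmpr1a (-0.26 ± 0.06) and the latent TGF-beta binding protein gene Ltbp1 (-0.91 ± 0.27) fell and the receptor gene Acvr1b rose (0.18 ± 0.05). In the Wnt pathway 3 of 29 genes were lower and 2 higher: Sfrp2, the negative feedback gene Axin2 (-0.30 ± 0.09) and the ligand Wnt5a (-0.22 ± 0.07) fell, and the ligand Wnt9a (0.55 ± 0.16) and the receptor Fzd2 (0.89 ± 0.27) rose. The calls were lost in 15 of the 18 settings that left out 1 library or 1 pair for Fzd2, in 12 for Wnt9a, in 12 for Axin2 and in 10 for Acvr1b.

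Imprinted genes, expressed from 1 parental copy, were lower in 8 and higher in 2 of 38 cases. Beside Peg3, the paternally expressed neighbours Ndn (-0.30 ± 0.06) and Magel2 (-0.52 ± 0.11) fell, as did Peg13 (-0.34 ± 0.06), Impact (-0.26 ± 0.07) and Inpp5f (-0.19 ± 0.04). Nnat (0.30 ± 0.065) and the noncoding H19 (0.81 ± 0.26) rose. Igf2 fell (-0.91 ± 0.28) at under 3 CPM in both groups, and the call was lost in 15 of the 18 settings that left out 1 library or 1 pair. Of the extracellular matrix genes 5 of 30 were lower, with the synapse-promoting Thbs1 (-0.69 ± 0.08) and the perineuronal net genes Bcan (-0.68 ± 0.11) and Hapln1 (-0.42 ± 0.07), and Col6a1 (0.32 ± 0.07) and Col5a1 (0.48 ± 0.14) rose.

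Metabolic and stress genes differed by list. In cholesterol synthesis 5 of 29 genes were lower and 0 higher, led by the isopentenyl isomerase gene Idi1 (-0.47 ± 0.07) and Cyp51 (-0.27 ± 0.05), and 26 of the 29 had negative fold changes. In the stress response 6 of 24 were lower and 0 higher, with Herpud1 (-0.33 ± 0.07), Atf5 (-0.26 ± 0.06) and the cystine carrier gene Slc7a11 (-0.46 ± 0.11). Of 19 p53 targets Phlda3 (0.49 ± 0.08), Perp (0.61 ± 0.14), Trp53inp1 (0.27 ± 0.07) and Aen (0.15 ± 0.05) rose and Ccng1 (-0.35 ± 0.06) fell. Of 20 circadian clock genes Clock and Tef (0.30 ± 0.06) rose and Rorb (-0.33 ± 0.08) and Arntl (-0.21 ± 0.06) fell. Of 35 lysosomal genes tested, the acid lipase gene Lipa fell (-0.61 ± 0.10) and Neu1 rose (0.17 ± 0.05). The calls were lost in 16 of the 18 settings that left out 1 library or 1 pair for Arntl, in 15 for Neu1, in 9 for Trp53inp1, in 5 for Atf5 and in 3 for Slc7a11. None of 47 cytosolic ribosomal protein genes and none of 43 nuclear genes of oxidative phosphorylation was called.

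Hypoxia-inducible and glycolytic genes, a list drawn up after values were seen, were higher in 8 of 21 cases and lower in 0, and all 21 fold changes were positive with a median of 0.33. Slc16a3, the lactate exporter, stood at 13.4, 8.53, 19.7, 13.9, 30.2 and 33.5 CPM and rose to 38.1, 29.5, 37.0, 16.4, 45.9 and 61.3 CPM (0.98 ± 0.21, adjusted p = 0.0399). The groups overlapped and the nontargeting libraries alone ranged widely. The adenylate kinase gene Ak4 (0.91 ± 0.18) and the hypoxia marker Ankrd37 (0.69 ± 0.15) rose, as did the glycolytic genes Pfkl (0.37 ± 0.075), Eno1 (0.37 ± 0.085), Tpi1 (0.32 ± 0.06), Aldoa (0.25 ± 0.055) and Gapdh (0.19 ± 0.06). Near-identical copies of several glycolytic genes elsewhere in the genome make their counts less certain. The count moved between 4 and 13 as single libraries or pairs were left out, being 13 without either library of male pair 1, 4 without either of male pair 3 and 5 without either of female pairs 2 or 3, and it was 0 without the replicate number in the model. Slc16a3 and Ak4 lost their calls in some of these settings. Over the shared controls the median of the list was 0.67 with the Med13l shRNA, 0.43 with Kmt2c, 0.39 with Tbr1 and 0.23 with Dnmt3a, and -0.50 with Chd8, -0.30 with Kdm6b, -0.28 with Ash1l and -0.25 with Setd5.

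Activity-regulated and RNA-binding genes gave few calls. Of 23 immediate early genes Egr3 rose (0.46 ± 0.10), and of 24 late activity-induced genes Nrn1 rose (0.30 ± 0.06) and the neuropeptide gene Tac1 fell (-0.39 ± 0.07). Of 39 splicing and neuronal RNA-binding genes Rbfox2 (0.21 ± 0.04), Nova2 (0.16 ± 0.04) and Ptbp3 (0.32 ± 0.10) rose, and Nova2 lost its call in 6 and Ptbp3 in 12 of the 18 settings that left out 1 library or 1 pair. Among 13 genes of Argonautes and miRNA processing, listed after values were seen, Ago2, the Argonaute that cuts paired messages, fell from 165, 313, 193, 249, 242 and 298 CPM to 87.0, 240, 142, 180, 169 and 186 CPM (-0.57 ± 0.06, adjusted p = 2.28e-05), and Tnrc6c rose (0.19 ± 0.05). Ago2 was lower in 6 of 6 pairs with overlapping groups, and its 3′ UTR holds the 7-base word.
Ago2 (chr15:73103925-73103953, minus strand): tcactcttaaaAACCCATcatgacatcca
With the shared controls Ago2 was at -0.95 with the Med13l shRNA and -0.66 with Ash1l.

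The libraries had the makeup of neuronal cultures. In such bulk samples, fewer cells of a type and less RNA per cell cannot be told apart. The summed level of 10 pan-neuronal markers was 7969 to 8976 CPM with the nontargeting shRNA and 7839 to 8665 CPM with the Mbd5 shRNA, and Snap25 was the 1 called. For 12 excitatory markers the sums were 1156 to 1343 CPM and 1184 to 1475 CPM, and the vesicular glutamate transporter gene Slc17a7 rose (0.27 ± 0.06). For 14 interneuron markers they were 2653 to 3664 CPM and 2487 to 3438 CPM. Of these 14 markers 3 were lower, 0 higher and 11 not called. Their median was -0.11, and the fold change was positive in 4 of them. The GABA-synthesising enzyme gene Gad2 fell from 387, 329, 255, 362, 319 and 389 CPM to 266, 279, 213, 273, 265 and 279 CPM (-0.37 ± 0.05), lower in 6 of 6 pairs, and Slc32a1 (-0.51 ± 0.12) and Vip (-0.36 ± 0.10) were lower in 5 of 6 pairs. Slc32a1 and Vip lost their calls without some pairs, and Gad2 was at -0.06 (adjusted p = 0.7) against the other 8 shRNAs. The part of interneuron number in the fall of GABA receptor genes was not tested.

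Glial and other cells were minor. The 11 astrocyte markers tested summed to 448 to 644 CPM and 423 to 708 CPM, and Gjb6 was at 0 in 8 of 12 libraries. The oligodendrocyte lineage, with 8 markers tested, summed to 58.5 to 70.4 CPM and 61.9 to 79.7 CPM. Its transcription factors Olig1 (-0.97 ± 0.15) and Olig2 (-0.77 ± 0.21) fell and its myelin genes Mbp (0.33 ± 0.06) and Cnp (0.30 ± 0.07) rose, while Olig2 lost its call in 11 of the 18 settings that left out 1 library or 1 pair. Olig1 stood at 7.86, 6.46, 8.17, 7.33, 7.26 and 7.80 CPM and fell to 3.49, 2.44, 2.85, 4.12, 4.39 and 6.46 CPM, and Sox10, which defines the lineage, was at 0 in 9 of 12 libraries. Of 11 microglial markers 3 were tested and none was called, with sums of 5.86 to 12.7 CPM and 6.77 to 14.4 CPM, and P2ry12, Tmem119 and Tyrobp were each at 0 in 9 of 12 libraries.

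Endothelial and mural markers (8 tested, 0 called) summed to 26.4 to 48.4 CPM and 13.3 to 36.6 CPM, and meningeal fibroblast markers to 20.7 to 54.4 CPM and 15.5 to 42.8 CPM, with Igf2 and Col1a1 (-0.60 ± 0.18) lower. Both calls were lost in 15 of the 18 settings that left out 1 library or 1 pair. Igf2 was also 1 of the 3 genes that differed between the nontargeting shRNA and no virus, with Col3a1 and Fam214b, all 3 lower with the nontargeting shRNA, by 1.96, 1.11 and 0.42 on the log2 scale for Igf2, Col3a1 and Fam214b. Of 14 markers of dividing progenitors Mcm2 rose (0.38 ± 0.10), with sums of 155 to 221 CPM and 158 to 265 CPM, and lost its call in 6 such settings.

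The same effect was estimated within each sex. In males 756 genes were called (5.19%), 510 lower and 246 higher, and in females 393 (2.7%), 278 lower and 115 higher. Both sexes shared 258 calls of equal direction, 210 lower and 48 higher, and 0 of opposite direction. The difference between the sexes was tested directly, and 0 of 14574 genes (0%) passed with edgeR's quasi-likelihood test, with 535 genes at an unadjusted p under 0.05. DESeq2 called 2 genes, Stc2 and Pter. The more frequent calls in males therefore do not show a larger effect in males. Mbd5 was at -1.44 ± 0.09 in males and -1.63 ± 0.09 in females, and the difference of 0.20 ± 0.13 gave an adjusted p of 1 with edgeR. Counts per sex rest on 3 pairs and on single libraries: 126 and 144 genes were called in males without the nontargeting or the Mbd5 library of replicate 1 and 497 and 478 without those of replicate 3. In females the counts were 115 and 113 without those of replicate 1 and 172 and 152 without those of replicate 3. Without the replicate number in the model 0 genes were called in either sex.

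Stc2, a secreted glycoprotein of the stress response, had the smallest p for a sex difference (male minus female -0.63 ± 0.12, adjusted p = 0.405 with edgeR). It was at 33.8, 81.0, 77.6, 77.3, 72.7 and 63.7 CPM with the nontargeting shRNA and at 35.3, 104, 93.9, 50.3, 59.7 and 53.2 CPM with the Mbd5 shRNA, lower in all 3 male pairs and higher in all 3 female pairs. Female replicate 1 was low in both groups. Aqp4 and Olig1, with larger point estimates in females (-1.93 and -1.37) than in males (-1.32 and -0.60), did not pass the test of the difference.

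**Figure D5:**
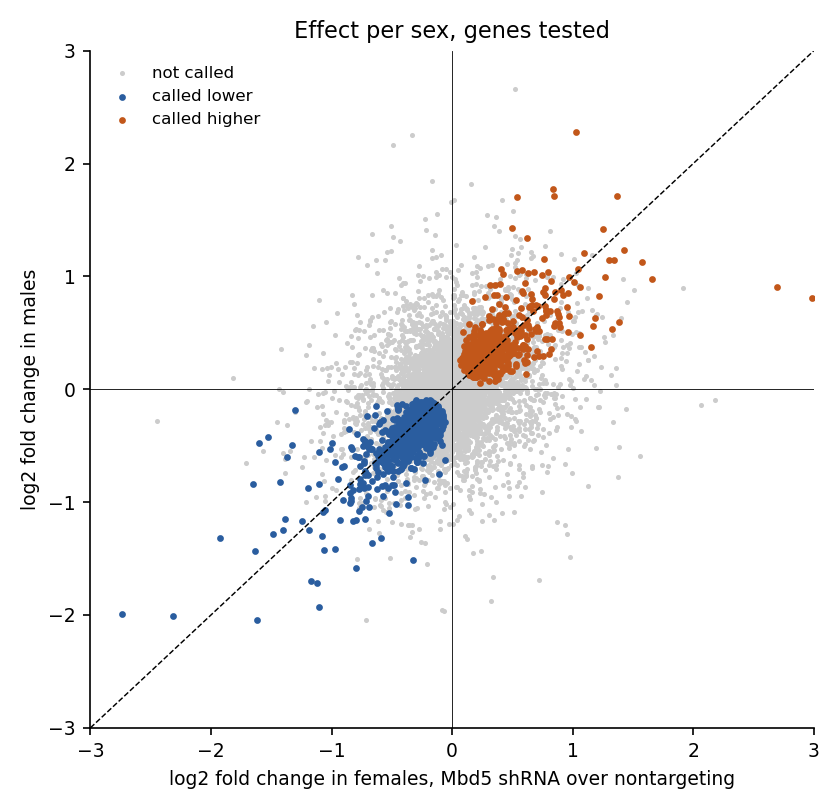
Log2 fold change of Mbd5 shRNA over nontargeting in females (horizontal axis) and in males (vertical axis) for the genes tested, with genes called in the pooled comparison coloured and a dashed line of equality. Of the 14574 genes, 2 lie outside the axes, which end at 3. Called genes lie in the 2 quadrants of equal sign, on both sides of the line.

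Set against the mean of the other 8 shRNAs, without nontargeting libraries, 2673 of 15542 genes were called (17.2%), 1425 higher and 1248 lower. Of the genes lower against nontargeting, 548 of 951 were called lower here too, which is 548 of the 1248 lower genes of this comparison, and of the higher genes 425 of 678, or 425 of 1425. Both comparisons use the same 6 Mbd5 libraries. Without the Mbd5 female replicate 1 library 1682 genes were called. Thrb, Iqsec3 and Chml, named after their values were seen, were lower against nontargeting and higher against the other shRNAs. Mbd5 (-1.57), Hadha (-1.07), Tmem19 (-0.84) and Morf4l2 (-0.69) were lower in both, and Gad2, Hipk2, Zbtb4 and Cplx2 were called against nontargeting but were at -0.06, -0.17, 0.03 and -0.09 here.

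Against neurons with no virus, 1302 of 14663 genes were called with the Mbd5 shRNA (8.88%), 745 lower and 557 higher. Calls were shared for 607 of the 951 genes lower against nontargeting and for 367 of the 678 higher genes. Mbd5 was at -1.63 ± 0.10, Rcan2 at -1.92, Aqp4 at -1.62, Lypd6 at -1.41 and Tap1 at 1.09. Against no virus 33 of the named genes lost the call, with Dock5, Angptl2, Slc16a3, Crb3, H2-Ab1, Il34 and Tns2 among them. The nontargeting libraries differed from no virus in 3 of 14669 genes with edgeR's quasi-likelihood test, and 585 had an unadjusted p under 0.05. Lower genes were longer in the genome, with a median of 41.7 kb against 22.7 kb for higher genes and 24.3 kb for all tested. Promoter CpG and GC content could be read for 78.3% of tested genes, under the 80% set as a minimum, so that check is void.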

How the data were processed

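Polyadenylated RNA of cultured neurons was made into stranded libraries, per the labels' protocols. The authors deposited a single table of counts, whole numbers and not normalised, whose 48716 rows cover the series. STAR, featureCounts and the mm10 build are named in the submitters' processing notes, while their versions and settings are not given in the sources used here. A further 6 columns match none of the samples and stayed out. Rows without a gene symbol, 18483 of them, held between 0.692% and 1.18% of the counts of the 12 libraries and stayed out, and 149 rows that repeat a symbol were summed. The control columns are named for luciferase, and they were matched to the group that the labels call nontargeting. Of values from 1 to 20, 27.3% were odd, against 49.5% of those of at least 1000, so for many fragments both mates may have been counted, and halved counts were tried as well. Precision rests on the replicates, since amplified reads are not independent molecules.

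Counts were tested in R 4.3.3 with edgeR 4.0.16 (limma 3.58.1): filterByExpr by treatment, TMM factors (0.970 to 1.03), and the robust quasi-likelihood F test on the 12 libraries with a block for each of the 6 pairs of sex and replicate number. DESeq2 1.42.0 was an alternative. The number was taken to pair the libraries because the deviations from the group means of same-numbered libraries correlated in every pair, at 0.306, 0.174 and 0.253 in males and 0.636, 0.730 and 0.368 in females. Scripts were tested on simulated data.

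Named genes are Mbd5, the 14 largest changes in each direction among called genes with at least 1 CPM and 6 of 6 pairs in 1 direction, the next 6 by p in each direction, up to 4 called genes per list by p, 3 genes for the sex difference, and 5 by p against the other shRNAs. This gave 143 genes, of which 141 were called. The values of some genes are not reported here. Other genes are named to fill a list or were chosen after their values were seen. The comparison, the gene lists and the rule were chosen with earlier results of these data known. The 3′ UTRs come from GENCODE vM21 on mm10, and the word counts, the protocadherin, MHC, hypoxia and Argonaute lists were chosen after seeing the data.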

Additional observations from a re-analysis of the deposited data

Results flagged for a closer look

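In groups of 6 libraries, 1 library was set apart when the gap between it and the nearest of the other 5, divided by the range of the group, passed Dixon's critical value. Over the 143 named genes in 2 groups, 286 groups were examined and 23 had such a library, and chance alone gives about 1 in 20.

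The nontargeting female replicate 1 library was set apart 7 times. Selenop stood at 10.6 CPM against 4.84 to 5.41 CPM in the other 5. Arf6 stood at 136 CPM against 91.5 to 98.3 CPM in the other 5. Slc44a5 stood at 34.1 CPM against 21.4 to 26.1 CPM in the other 5. Kmt5a stood at 31.8 CPM against 40.8 to 45.0 CPM in the other 5. Igf2 stood at 2.25 CPM against 0.68 to 1.21 CPM in the other 5. Cplx2 stood at 612 CPM against 410 to 467 CPM in the other 5. Stc2 stood at 33.8 CPM against 63.7 to 81.0 CPM in the other 5.

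The Mbd5 shRNA female replicate 2 library was set apart 6 times. Rcan2 stood at 168 CPM against 43.8 to 72.2 CPM in the other 5. Uhmk1 stood at 370 CPM against 196 to 261 CPM in the other 5. Sema3f stood at 10.9 CPM against 18 to 21.7 CPM in the other 5. Slc7a11 stood at 15.5 CPM against 3.11 to 6.88 CPM in the other 5. Pter stood at 105 CPM against 37.4 to 57.5 CPM in the other 5. Hadha stood at 45.5 CPM against 22.7 to 29.5 CPM in the other 5.

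The Mbd5 shRNA male replicate 3 library was set apart 4 times. Angptl2 stood at 3.94 CPM against 1.35 to 1.89 CPM in the other 5. Cacna1c stood at 135 CPM against 90.4 to 105 CPM in the other 5. Bcan stood at 19.6 CPM against 8.64 to 11.7 CPM in the other 5. Camk2b stood at 845 CPM against 702 to 739 CPM in the other 5.

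The remaining 6 cases were spread over 5 libraries. Scn2b stood at 142 CPM in the Mbd5 shRNA female replicate 1 library against 107 to 119 CPM. Kdm6b stood at 45.5 CPM in the Mbd5 shRNA female replicate 1 library against 61.2 to 68.1 CPM. Gad2 stood at 213 CPM in the Mbd5 shRNA female replicate 3 library against 265 to 279 CPM. Sc5d stood at 62.2 CPM in the Mbd5 shRNA male replicate 1 library against 67.5 to 70.6 CPM. Thbs1 stood at 14.9 CPM in the nontargeting female replicate 3 library against 20.5 to 23.8 CPM. Syt2 stood at 5.20 CPM in the nontargeting male replicate 3 library against 3.23 to 3.96 CPM.

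All but Stc2 and Pter were called in the pooled comparison, and those 2 were examined for a sex difference that no gene passed with edgeR's quasi-likelihood test. Of the rest, Angptl2, Arf6, Bcan, Cacna1c, Camk2b, Cplx2, Gad2, Hadha, Igf2, Kdm6b, Kmt5a, Rcan2, Sc5d, Scn2b, Selenop, Sema3f, Slc44a5, Slc7a11, Syt2, Thbs1 and Uhmk1, the calls of Camk2b, Igf2, Kdm6b and Slc7a11 were lost when some single libraries were left out.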

How the results depend on the processing

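None of the 141 named genes called changed direction under the alternatives run, nor did the Mbd5 level or the difference of word-bearing genes, while Stc2 (-0.17 to 0.03) and Pter (-0.19 to 0.02), not called in the pooled comparison, crossed 0. The replicate block carried most calls: without it the pooled count was 115 in place of 1629, the counts in males and in females were 0 and 0 in place of 756 and 393, and that against the other 8 shRNAs was 1057 in place of 2673. Lists without the block gave 3 alpha protocadherins (11 with it), 1 GABA or glycine receptor (7) and 0 hypoxia-inducible genes (8). With all 66 libraries in 1 fit the counts were 612 pooled, 159 in males and 80 in females with the block, with 1 GABA or glycine receptor and 1 hypoxia-inducible gene, and 109, 1 and 0 without the block. The hypoxia-inducible count was 17 without a filter on low counts, 14 without robust estimation and 4 against no virus. Among the named genes called, 33 lost the call against no virus and 61 with all 66 libraries and the block. With genes that hold none of the words the pooled count was 862, an alternative chosen after seeing the data that tested fewer genes. Its calls were 385 lower and 477 higher in place of 951 lower and 678 higher. The way the words were picked favours such a turn. DESeq2 called 2 genes for the sex difference (Pter and Stc2).

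Leaving out 1 library or pair gave 1018 (without male pair 1) to 1636 pooled calls (1042 without female pair 1 and 1019 without its nontargeting library), 126 to 1054 in males, 113 to 586 in females, 1682 to 2294 against the other shRNAs and 0 to 1 for the sex difference (Pter without the Mbd5 male replicate 2 library). It gave 10 to 11 alpha protocadherins, 3 to 7 GABA or glycine receptors and 4 to 13 hypoxia-inducible genes (5 without female pair 2 or 3). Mbd5 moved between -1.58 and -1.49, and the median of word-bearing genes minus that of the others between -0.11 and -0.09. The word was picked with all these libraries in, so the latter range is a description. Of the 141 named genes called, 35 lost the call in at least 1 such setting and 35 were called without the block. The cause was not tested. A lone library left in a pair adds nothing to the paired estimate, and genes under 1 CPM are limited by depth.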
